A study of Mus musculus with 11 samples.

Results

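Ion channel genes of the voltage-gated families were followed through the open chromatin of embryonic monoaminergic neurons. The gene set held the protein-coding genes of the GENCODE annotation of the mouse genome (mm9) whose symbols start with Kcn, Cacn, Scn or Hcn followed by a letter or digit, without the G-protein-gated channel genes Kcnj3, Kcnj5, Kcnj6 and Kcnj9. This gave 137 of 22225 protein-coding genes, of which 90 start with Kcn, 26 with Cacn, 17 with Scn and 4 with Hcn. The name of the set does not cover all of it. Of the members, 64 encode pore subunits of voltage-gated potassium, calcium and sodium channels or of HCN channels. The other 73 encode further channels and auxiliary subunits. They comprise inward rectifiers (Kcnj), tandem-pore potassium channels (Kcnk), potassium channels gated by calcium or sodium, some of which (Kcnma1 and Kcnu1) are gated by voltage as well, epithelial sodium channels (Scnn1), and the auxiliary subunits of all these families.

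Accessible chromatin was mapped by ATAC-seq in 3 libraries of dopaminergic (DA) neurons and 2 libraries of serotonergic (5-HT) neurons from E14.5 mouse embryos. DA neurons came from the ventral mesencephalon of TH-GFP embryos, a line kept on the C57BL/6J background in which the Th promoter drives GFP. 5-HT neurons came from rhombomeres 1 to 3 of Mash1-CRE x ROSA YFP embryos, in which cells with a history of Mash1-driven Cre carry YFP. For both lines, transgenic males had been crossed to Swiss wild-type females, the tissue of several embryos was pooled, and fluorescent cells were sorted. Mash1 is also active in progenitors of other neurons, and the GFP-positive pool holds some cells without Th, so both pools may hold other cells. The study's own measures of purity, by staining and PCR, are not used here. In such pools, a region open in fewer cells and a region less open in each cell cannot be told apart.

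Voltage-gated channels open or close with the membrane potential and so shape the action potential. Sodium channels carry its upstroke, potassium channels repolarise the membrane, calcium channels couple it to transmitter release and gene expression, and HCN channels pass an inward current on hyperpolarisation that contributes to pacemaking. Mature DA and 5-HT neurons fire slowly and regularly, and in DA neurons calcium channels, HCN channels, A-type potassium channels and SK channels set the rate and regularity of this firing.

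Each library listed the same 131942 regions with a score of unnamed scale, and a score of 0 marked a region without a peak. The number of peaks was 52861, 93055 and 94351 in DA libraries 1, 2 and 3 and 38772 and 22879 in 5-HT libraries 1 and 2. Values below are given in this order. The 5-HT libraries thus had fewer peaks than any DA library, and a peak missing from them may lie under their detection limit. The read depth of each library is not known. Counts were therefore repeated with the 22879 highest-scoring peaks of each library, called the equal number of peaks, and percentiles within a library are given for part of the genes. Median scores over all peaks were 5.12, 4.44, 4.01, 4.48 and 3.69, so printed scores and their sums are not on 1 scale, and a lower score in a 5-HT library is not by itself a lower rank. A region was called DA-only with a peak in all 3 DA libraries and in neither 5-HT library, and 5-HT-only in the opposite case. A promoter ran from 1 kb upstream to 100 bp downstream of any annotated TSS, and intronic regions were those outside promoters with their centre in an intron.

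The promoters of marker genes were checked against the labels of the libraries. Th, the rate-limiting enzyme of dopamine synthesis, scored 9.91, 10.6 and 8.45 in the DA libraries and 0 in both 5-HT libraries. Lmx1a, a factor of midbrain DA progenitors and neurons, also had promoter peaks in the DA libraries alone. Of 10 DA markers, 10 had a promoter peak in each DA library, against 7 and 6 in the 5-HT libraries, with summed scores of 74.0, 77.9, 67.0, 31.0 and 19.7. At the equal number of peaks, 8, 7, 7, 5 and 6 had one. The highest DA marker was Pitx3 in DA libraries 1 to 3 and in 5-HT library 1, and En1 in 5-HT library 2.

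Markers of 5-HT neurons ran in both directions. The promoter of Tph2, the rate-limiting enzyme of brain serotonin synthesis, scored 9.91, 7.59 and 11.1 in the DA libraries and 7.09 and 3.59 in the 5-HT libraries. The serotonin transporter gene Slc6a4 scored 4.80, 6.56 and 3.76 in the DA libraries and 0 in both 5-HT libraries. Fev, a factor of 5-HT identity, had a peak only in 5-HT library 1, with a score of 3.88. Gata2 scored 0, 3.11, 0, 4.20 and 0, and Gata3 scored 6.98, 4.52, 4.65, 5.13 and 7.51, highest in 5-HT library 2. Of 8 markers of 5-HT neurons, 6, 7, 6, 6 and 4 had a promoter peak, with summed scores of 38.7, 42.7, 38.2, 28.8 and 17.3, and the highest was Tph2 in DA libraries 1 and 3 and 5-HT library 1, Lmx1b in DA library 2 and Gata3 in 5-HT library 2. Of the 8, 4, 3, 3, 4 and 4 had one at the equal number of peaks. Lmx1b, Slc18a2 and Ddc are in both the DA and the 5-HT list. By number, these promoters did not set the 5-HT libraries apart from the DA libraries.

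Promoter peaks at markers of other cells were present in both groups when all peaks were used. Of 6 progenitor and radial glia markers, 6, 6, 6, 6 and 5 had a promoter peak, with summed scores of 29.4, 28.8, 27.9, 27.3 and 18.9, and the highest was Slc1a3 in DA libraries 1 and 3, Sox2 in DA library 2 and 5-HT library 1, and Hes5 in 5-HT library 2. Of 3 GABAergic markers, 3, 3, 3, 2 and 2 had one, with summed scores of 14.9, 13.9, 12.9, 9.57 and 6.60, led by Slc32a1 in DA libraries 1 and 2 and by Gad2 in the others. Of 3 glutamatergic markers, 1, 2, 2, 2 and 0 had one, with summed scores of 9.97, 17.1, 16.9, 7.02 and 0, led by Slc17a6, and Slc17a7 was at 0 in all 5 libraries. With the equal number of peaks, progenitor markers numbered 1, 0, 1, 4 and 5 and GABAergic markers 0, 0, 0, 2 and 2. Glutamatergic markers numbered 1, 1, 1, 0 and 0, by Slc17a6 alone. Over all protein-coding genes, 40.7% then had a promoter region in all 3 DA libraries and 45.1% in both 5-HT libraries. The lowest score kept was 5.54, 6.70, 5.97, 4.18 and 2.83. Every peak of 5-HT library 2 was thus kept, while the lower-scoring peaks of the others were not.

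Glial and vascular lists were shorter. Of 3 astrocyte markers, 1, 3, 2, 1 and 1 had a promoter peak, with summed scores of 6.91, 15.9, 10.8, 6.92 and 3.20, led by Gfap except in 5-HT library 2, where Aldh1l1 led. Of 4 oligodendrocyte lineage markers, 2, 3, 3, 3 and 3 had one, with summed scores of 13.1, 16.6, 17.4, 14.1 and 11.6, led by Olig1 in the DA libraries, Pdgfra in 5-HT library 1 and Olig2 in 5-HT library 2. Of 4 vascular markers, 2, 3, 3, 2 and 0 had one, with summed scores of 9.09, 13.3, 12.6, 8.52 and 0, led by Cldn5. In the equal number of peaks, oligodendrocyte lineage markers numbered 1, 0, 1, 3 and 3, astrocyte markers 1 in each library, and vascular markers 0, 0, 0, 1 and 0. Sox10, Pecam1 and all 3 microglial markers (Cx3cr1, Csf1r and Aif1) were at 0 in every library. The part of these cells in the values of the channel genes was not tested.

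Most channel genes had an open promoter in DA neurons. A promoter region was present for 65.7, 78.1 and 73.0% of the 137 members in the DA libraries and for 65.0 and 46.7% in the 5-HT libraries. Over all protein-coding genes, the shares were 59.9, 63.8, 62.1, 58.4 and 49.7%. Members exceeded all genes in every DA library and in 5-HT library 1, and lay below them in 5-HT library 2, the library with the fewest peaks. With the equal number of peaks, the order turned in the DA libraries: members had a promoter region in 33.6, 32.1, 35.0, 46.0 and 46.7% of cases, against 45.8, 46.0, 44.0, 49.6 and 49.7% of all genes. Members were then below all genes in every library.

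**Figure D1:**
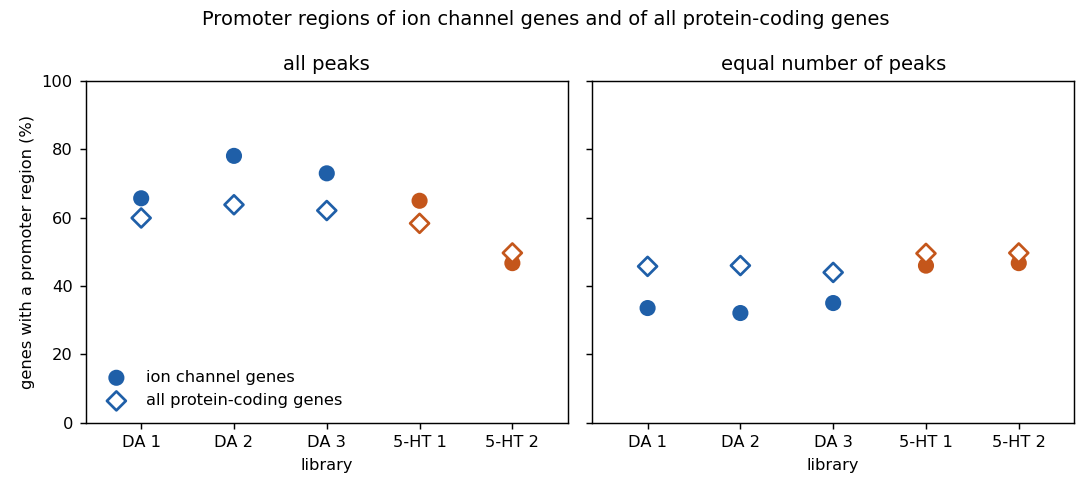
Share of genes with a promoter region (%, vertical axis) in each of the 5 libraries (horizontal axis), for ion channel genes (filled circles) and all protein-coding genes (open diamonds), with all peaks on the left and an equal number of peaks on the right; DA libraries are blue and 5-HT libraries orange. The channel genes reach 78.1% in DA library 2 with all peaks and 32.1% with the equal number, where all genes reach 46.0%.

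A promoter region in all 3 DA libraries was found for 87 members (63.5%), against 59.0% of all protein-coding genes. A promoter region in both 5-HT libraries was found for 63 members (46.0%), against 48.8% of all genes, and the same 63 had a promoter region in all 5 libraries, against 48.5%. These shares are near those of all genes. With the equal number of peaks, 38 members had a promoter region in all 3 DA libraries and 51 in both 5-HT libraries, against 40.7% and 45.1% of all genes. As shares of the 137 members, these counts were 27.7% and 37.2%.

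The promoter scores of members ranked low in every library. Their median score was 5.60, 5.85, 5.61, 4.62 and 3.65, against 7.68, 9.33, 7.97, 5.70 and 4.34 for all genes with a promoter peak. As percentiles among those genes, the medians of the members were 24.7, 21.7, 25.5, 25.6 and 28.4. Each DA value was below both 5-HT values, by the least between DA library 3 (25.5) and 5-HT library 1 (25.6). Subunits of glutamate, GABA and acetylcholine receptors, another set of 56 neuronal genes, had median percentiles of 23.1, 23.6, 23.7, 35.3 and 25.5, so a low rank was not particular to channel genes.

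By prefix, Kcn genes had a promoter region in 65.6, 76.7, 70.0, 62.2 and 47.8% of cases, with median percentiles of 25.5, 22.5, 32.7, 25.5 and 26.0. Cacn genes had one in 69.2, 84.6, 76.9, 73.1 and 53.8%, with median percentiles of 16.4, 18.8, 14.6, 32.5 and 28.4. Over the members with a peak, the median rank of Cacn promoters was thus lower in every DA library than in either 5-HT library, which the other prefixes did not show. Scn genes had a promoter region in 52.9, 70.6, 76.5, 64.7 and 29.4% of cases, with median percentiles of 27.6, 17.0, 22.5, 18.7 and 43.8.

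The members fell into classes by the promoter region with the most libraries. It was present in all 5 libraries for 63 members, in the 3 DA libraries and a single 5-HT library for 16 (11.7%, against 8.48% of all genes), and in the 3 DA libraries alone for 8 (5.84%, against 2.06%). For 14 members (10.2%, against 4.18%) it was present in 1 or 2 DA libraries alone. For 7 (5.11%, against 1.76%) it was present in a single 5-HT library and fewer than 3 DA libraries. No promoter region in any library was found for 29 members (21.2%), against 34.8% of all genes. Of the 108 members with a promoter region, 30 had more than 1, at the same or at different annotated TSSs. A DA-only region at another TSS was found for 2 members with a promoter region in all 5 libraries.

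Pore subunits of voltage-gated potassium channels were the largest role, with 40 members. A promoter region was present in all 3 DA libraries for 27 of them and in all 5 libraries for 23. Kcnh1, an ether-à-go-go channel, scored 10.4, 8.47, 8.56, 5.23 and 3.35. Its percentiles were 74.1, 42.9, 55.2, 40.1 and 18.1, with DA library 2 close to 5-HT library 1.

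The A-type channel genes Kcnd2 and Kcnd3, which give a fast inactivating current in DA neurons, were open in all 5 libraries. Kcnd2 scored 6.32, 8.54, 8.36, 6.06 and 3.42, and Kcnd3 scored 4.80, 5.77, 5.08, 4.29 and 2.95. The percentiles of Kcnd3 lay between 3.17 and 21.0. The delayed rectifier gene Kcnc1 scored 4.86, 6.86, 6.24, 4.48 and 2.85, and the low-threshold gene Kcna2 scored 5.56, 7.72, 7.67, 5.48 and 3.46.

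Kcnq3 and Kcnq5, which encode slow potassium channels closed by muscarinic receptors, were open in all 5 libraries. Kcnq3 scored 7.12, 8.15, 7.77, 4.45 and 3.67 and Kcnq5 scored 6.66, 6.96, 7.28, 5.52 and 4.05. Kcnh7, of the ether-à-go-go family, scored 5.05, 5.54, 6.86, 4.62 and 2.90. In this role, 7 members had no promoter region in any library, namely Kcna7, Kcna10, Kcnb2, Kcnd1, Kcnh8, Kcnq1 and Kcns1.

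Potassium channels gated by calcium or sodium held the highest promoter scores of the set. Kcnn3, an SK channel subunit that carries the afterhyperpolarisation of DA neurons, scored 13.3, 17.2, 12.7, 8.84 and 5.50, at chr3:89323678-89324285. Its relative Kcnn2 scored 12.3, 15.02, 14.0, 7.48 and 5.46. Kcnt2, a sodium-activated channel, scored 10.2, 9.15, 11.5, 5.99 and 8.13. Kcnn3 had the highest promoter score of all members in DA libraries 1 and 2 and 5-HT library 1, Kcnn2 in DA library 3 and Kcnt2 in 5-HT library 2. Promoters of these 3 genes were open in all libraries. The median percentile of the role was 66.0, 51.9, 64.6, 32.9 and 73.0 over 6, 6, 6, 6 and 3 members.

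Kcnu1, a pH-sensitive relative of the BK channel known from sperm, scored 8.53, 10.0, 8.34, 3.89 and 0. Its percentiles were 58.7, 55.3 and 53.2 in the DA libraries and 9.17 in 5-HT library 1. Kcnn1 and Kcnt1 had promoter peaks in all libraries but 5-HT library 2. The BK channel gene Kcnma1 and Kcnn4 had no promoter region in any library.

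**Figure D2:**
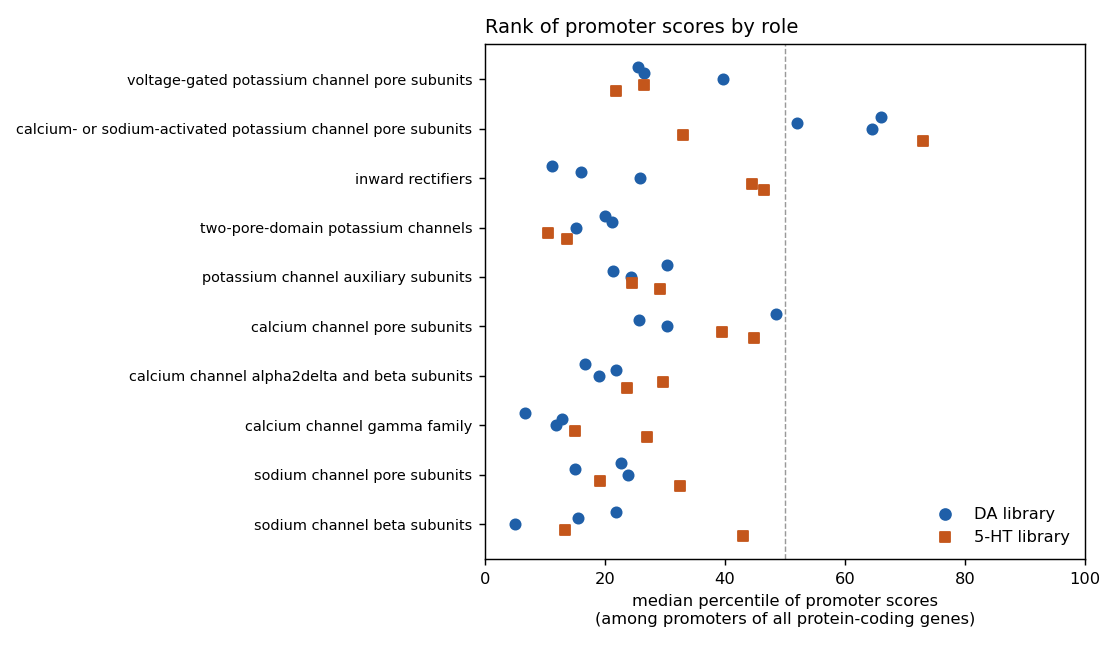
Median percentile of the promoter scores of each of 10 roles of potassium, calcium and sodium channel genes among the promoters of all protein-coding genes with a peak in that library (horizontal axis, 50 marks the median gene, dashed), with a blue circle for each DA library and an orange square for each 5-HT library. Potassium channels gated by calcium or sodium lie highest in the DA libraries, at 66.0, 51.9 and 64.6, and the calcium channel gamma family lies between 6.58 and 12.7 in them.

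Inward rectifiers, which hold the resting potential, had 11 members, of which 5 had a promoter region in all 3 DA libraries and 4 in all 5. Kcnj10, a glial potassium channel gene, scored 4.50, 4.83, 5.15, 5.42 and 6.32. Its percentiles of 11.1, 13.5, 20.9, 44.5 and 82.3 were lower in each DA library than in either 5-HT library. The pore subunits of ATP-sensitive channels scored 5.89, 9.29, 5.64, 6.12 and 4.07 for Kcnj11 and 4.70, 6.14, 6.50, 4.38 and 3.06 for Kcnj8. Kcnj1, Kcnj13, Kcnj14 and Kcnj15 had no promoter region.

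Of 14 tandem-pore channels, which carry background potassium currents, 7 had a promoter region in all 3 DA libraries and 5 in all 5. The acid-sensitive channel Kcnk3 scored 3.74, 5.60, 4.62, 4.05 and 3.06. Its relative Kcnk9 had a peak of 3.58 in DA library 2 and 3.45 in DA library 3 alone. Both ranked low where present, and Kcnk4, Kcnk7, Kcnk16 and Kcnk18 had no promoter region.

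Of 17 auxiliary subunits of potassium channels, 12 had a promoter region in all 3 DA libraries and 8 in all 5. Kcnab2, a cytoplasmic beta subunit, scored 10.6, 12.5, 10.4, 7.16 and 4.68 in a region that also covers a promoter of Nphp4, so the signal cannot be assigned to either gene. Kcnip4, which binds the A-type pore subunits, scored 7.67, 8.12, 8.37, 5.96 and 4.08. Both were open in all 5 libraries. This role held 5 of the 10 members with a DA-only promoter region, described below, while Kcne1, Kcne4, Kcnmb3 and Kcnrg had no promoter region.

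Of 10 pore subunits of calcium channels, 7 had a promoter region in all 3 DA libraries and 5 in all 5. Cacna1a, the P/Q-type channel of synaptic terminals, scored 10.1, 12.6, 12.8, 4.47 and 4.96, and the N-type gene Cacna1b scored 7.53, 12.7, 9.33, 5.83 and 4.75. The highest of the role was Cacna1a in DA libraries 1 and 3 and 5-HT library 2, Cacna1b in DA library 2 and Cacna1s, at 8.27, in 5-HT library 1. Cacna1d, an L-type channel that takes part in the pacemaking of DA neurons, was open in all 5 libraries at the low scores of 4.37, 4.27, 3.94, 3.93 and 3.82. Its percentiles in the DA libraries were 9.69, 9.49 and 8.55, below both 5-HT libraries at 10.3 and 34.5.

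T-type genes, for low-voltage calcium channels, ranged from open in all libraries to open in some. Cacna1g scored 8.88, 9.52, 8.43, 5.60 and 3.21. Cacna1h scored 3.95, 4.91, 4.09, 5.52 and 0, and Cacna1i scored 0, 5.85, 3.39, 4.59 and 0. Only Cacna1g had a peak in every library. The other brain L-type gene, Cacna1c, had no promoter region in any library, and neither had the retinal gene Cacna1f.

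Auxiliary alpha2delta and beta subunits bring calcium channels to the membrane. Of these 8 genes, 7 had a promoter region in all 3 DA libraries and 5 in all 5. Cacnb4 scored 9.40, 8.63, 9.28, 6.00 and 5.54, Cacna2d1 scored 4.49, 7.41, 5.01, 4.65 and 3.17, and Cacna2d3 scored 5.21, 5.12, 4.32, 4.92 and 3.01. All 3 were open in every library, and Cacnb4 ranked highest of the role in DA libraries 1 to 3.

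The gamma family, most of which traffics AMPA receptors, had 8 members, with 4 promoter regions in all 3 DA libraries and the same 4 in all 5. Cacng7 scored 9.25, 12.0, 8.41, 4.98 and 3.78, and Cacng3 scored 3.95, 3.63, 3.38, 6.01 and 3.43. These 2 relatives ranked in opposite orders: percentiles were 65.3, 68.3, 54.0, 34.5 and 32.9 for Cacng7 and 4.87, 4.15, 3.01, 56.1 and 21.0 for Cacng3. Cacng1, the skeletal muscle subunit, and Cacng8 had no promoter region.

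Of 10 pore subunits of sodium channels, 5 had a promoter region in all 3 DA libraries and 2 in all 5. Scn9a scored 7.98, 10.7, 11.0, 5.34 and 4.13 and Scn1a scored 4.43, 4.34, 5.31, 4.05 and 3.41. Scn2a1 scored 5.85, 5.59, 5.43, 4.62 and 0, and had a peak of 2.97 at another TSS in 5-HT library 2 alone. Scn3a, a channel of embryonic neurons, scored 6.58, 6.73, 7.50, 3.89 and 0. Scn3a was higher by percentile in the DA libraries (36.9, 28.6 and 45.5) than in 5-HT library 1 (9.32). Scn8a, the main sodium channel of mature axon initial segments, had no promoter region, as had the sensory gene Scn10a and the muscle gene Scn4a.

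Of the 4 sodium channel beta subunits, Scn3b had a promoter region in all libraries, at 7.02, 10.5, 9.83, 5.71 and 4.08. Of the 3 epithelial sodium channel genes, which are not voltage-gated, Scnn1g had one in all 5 libraries and Scnn1b had none. Of the HCN genes, Hcn4 scored 6.98, 7.23, 7.54, 4.79 and 3.09, and Hcn3 scored 4.68, 7.12, 4.76, 4.18 and 0. Hcn2 scored 3.96, 4.27 and 3.58 in the DA libraries and 0 in both 5-HT libraries. These 3 genes were thus open in every DA library, and only Hcn4 in both 5-HT libraries.

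A DA-only promoter region was found for 10 members (7.30%), against 3.58% of all genes. The count moved to 30 members without 5-HT library 1 and to 19 without DA library 1. A 5-HT-only one was found for no member and for 14 of all 22225 genes (0.0630%). By the lowest DA score, the highest DA-only promoter region was at Kcnip1, a calcium-binding partner of A-type channels. This region, chr11:33893751-33894734, scored 6.27, 8.34 and 6.11. A second DA-only region of Kcnip1 scored 4.18, 3.69 and 3.47, and a region at another TSS was open in all 5 libraries. The other auxiliary subunits were Kcne3 at 5.50, 5.26 and 4.92, Kcnab3 at 6.44, 5.79 and 4.84, Kcnip2 at 3.59, 3.71 and 3.31, and Kcnmb1 at 4.14, 3.22 and 3.11. The region of Kcnmb1, a beta subunit of BK channels, lies in an intron of Kcnip1 and was counted for both genes.

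The remaining DA-only promoter regions were those of Scn7a, a sodium-sensing channel, at 5.03, 5.00 and 5.24, Cacna1a at 4.15, 5.64 and 5.16, Kcnj16 at 4.07, 5.12 and 4.69, Hcn2 and the calcium channel subunit gene Cacnb1 at 4.00, 4.49 and 3.13. Cacna1a had 2 further promoter regions open in all 5 libraries, and Kcnj16 had a peak of 4.58 at another TSS in 5-HT library 1. With the equal number of peaks, 3 members had a DA-only promoter region, against 0.675% of all genes: Kcnip1, Kcnu1 and Scn3a. Of these, only Kcnip1 was DA-only with all peaks. Under the same setting, 8 members had a 5-HT-only promoter region (5.84%), against 2.75% of all genes, namely Cacna2d3, Cacng3, Kcnc4, Kcnd3, Kcne1l, Kcnj10, Kcnk10 and Kcnmb2. All 8 of these regions had peaks in all 5 libraries when every peak was used.

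Ranks were compared for the 63 members with a promoter region in all 5 libraries, among all 10772 genes with such a region. Of these members, 4 (6.35%) ranked higher in every DA library than in either 5-HT library, against 16.1% of all such genes. In the opposite direction, 11 (17.5%) ranked lower in every DA library, against 15.3%, and 48 overlapped. The higher ones were Cacng7, Kcnn2, Kcnip3 and Kcnf1, with percentiles of 57.7, 58.5, 42.1, 24.7 and 31.8 for Cacng7. The lower ones were Kcnj10, Cacng3, Cacng2, Kcnj11, Kcne1l, Cacna1d, Kcnc4, Kcnq5, Kcna3, Kcnj2 and Kcnip4. Kcnj10 had percentiles of 3.88, 2.59, 8.24, 35.1 and 81.9, and Cacng3 had 1.07, 0.190, 0.162, 48.1 and 19.8. The share of lower ranks was near that of all genes, while that of higher ranks was below it.

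Promoters without a region differed in base composition. In the 1000 bp around the 5′ end of the gene, the ratio of observed to expected CpG dinucleotides had a median of 0.636 for members open in all 5 libraries, 0.548 for those open in 1 to 4 libraries and 0.274 for those without a region. The medians over all genes were 0.746, 0.546 and 0.186. A ratio of at least 0.6, a usual mark of CpG islands, was found for 56.5, 46.7 and 3.45% of members in these classes, against 77.1, 42.3 and 3.66% of all genes. Members open in every library thus had fewer CpG-rich promoters than other genes of this kind.

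Of the 29 members without a promoter region, 18 (62.1%) had an intronic region and 10 (34.5%) had a DA-only one, against 19.7% and 5.33% of all genes without a promoter region. No region in promoter, exon or intron was found for 10 of the 137 members (7.30%), against 25.7% of all genes. The nearest region upstream of Kcnh8, an ether-à-go-go-like channel, was a DA-only region 2.46 kb from its 5′ end at chr17:52860824-52862623, outside the promoter window, with scores of 9.42, 10.3 and 8.82. For Cacna1f it lay 1.54 kb upstream and was open in all 5 libraries, at 9.41, 11.2, 9.72, 5.36 and 3.42. These regions were not assigned to the genes.

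Introns held most of the open chromatin of the channel genes. Of their regions, 851 were intronic, 153 lay at promoters and 49 in exons or at gene edges. The number of intronic regions was 315, 627, 551, 180 and 88, or 20.9, 41.6, 36.6, 11.9 and 5.84 per Mb of intron. Over all protein-coding genes, the densities were 17.8, 36.6, 33.5, 11.5 and 5.37 per Mb. The members were above all genes in each library, by the least in 5-HT library 1. For the equal number of peaks, the densities were 6.64, 6.24, 7.04, 4.98 and 5.84 per Mb for members and 5.74, 5.70, 5.74, 5.24 and 5.37 for all genes, with 5-HT library 1 now below.

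By prefix, intronic density was 19.8, 39.1, 41.2, 11.4 and 5.80 per Mb for Kcn, 25.8, 51.5, 32.2, 16.1 and 7.05 for Cacn, and 12.3, 25.5, 18.5, 3.52 and 3.52 for Scn. Of these 3 prefixes, Cacn was densest in all libraries but DA library 3, where Kcn was. Receptor subunits had 15.5, 32.2, 33.6, 8.79 and 3.78 per Mb, below the channel genes throughout. Intronic scores of members were ordinary for introns, with median percentiles of 48.5, 50.8, 50.9, 47.4 and 61.7 among the intronic regions of all genes.

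A DA-only intronic region was found in 54 members (39.4%), against 16.2% of all genes. Such a count depends on gene length, and 39 members with at least 100 kb of intron hold 82.6% of the 15.1 Mb of intron of the set. Among genes of that length, 34 of 39 members (87.2%) had a DA-only intronic region, against 73.2% of all such genes. Receptor subunits had one in 27 of 56 cases (48.2%) and channel partners such as ankyrins, Dpp6 and ryanodine receptors in 14 of 21 (66.7%). With the equal number of peaks, 19 members had a DA-only intronic region, against 4.44% of all genes, and 8 had a 5-HT-only one, against 2.97%.

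As regions, 147 of the 851 were DA-only, 53 were open in all 5 libraries, 54 in the DA libraries and a single 5-HT library, and 502 in 1 or 2 DA libraries alone. Leaving out DA library 1 gave 258 DA-only regions, and leaving out 5-HT library 2 gave 99 open in all the others. The rest comprised 4 that were 5-HT-only, 9 open in both 5-HT libraries and some DA libraries, and 82 in other combinations. The DA-only regions were 57.9% of the 254 intronic regions open in all 3 DA libraries, against 54.6% over all genes. Their density was 9.76 per Mb of intron in members and 8.04 per Mb in all genes. In genes with at least 100 kb of intron, it was 9.72 per Mb in members and 9.04 per Mb in all genes, a smaller gap, and in shorter genes it was 9.93 and 6.65 per Mb. Receptor subunits had 7.79 and channel partners 6.82 per Mb, and the 4 G-protein-gated channel genes had 7 DA-only regions at 16.3 per Mb. At the equal number of peaks, 23 DA-only intronic regions were left in members, at 1.53 per Mb against 1.22 per Mb.

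Across these prefixes, DA-only intronic regions numbered 83 in Kcn, 51 in Cacn and 7 in Scn genes, at 9.26, 11.2 and 6.17 per Mb. By role, they were found in 15 of 40 pore subunits of voltage-gated potassium channels, 5 of 8 potassium channels gated by calcium or sodium, 1 of 11 inward rectifiers, 5 of 14 tandem-pore channels and 5 of 17 auxiliary potassium channel subunits. For calcium channels, they were found in 8 of 10 pore subunits, 6 of 8 alpha2delta and beta subunits and 3 of 8 gamma genes. For sodium channels, they were found in 4 of 10 pore subunits and in none of 4 beta subunits. No epithelial sodium channel gene had one. Over all genes the share was 16.2%, and it was 73.2% among those with at least 100 kb of intron. The roles differ in intron length and were not compared at equal length.

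The 7 members with 6 or more DA-only intronic regions held 55 of the 147 (37.4%) in 24.8% of the intron length. They were picked by this same count, so a share above that of length does not show a concentration. Cacna2d3 had 11 in 813.2 kb of intron and Kcnip4 had 10 in 1132.5 kb. Kcnd3, a pore subunit of the kind that Kcnip1 and Kcnip4 bind, had 8 in 212.1 kb, and Kcnip1 had 7 in 357.6 kb. Cacna2d1 had 7, Kcnma1 and Kcnmb2, the pore and a beta subunit of BK channels, had 6 each, and Kcnb2 had 5. Cacna1c, Cacna1e, Cacna2d2, Kcnq5 and Scn3a had 4 each. Kcnma1, Kcnb2 and Cacna1c had no promoter region. A further 24 members had a single DA-only intronic region, and 5 members with at least 100 kb of intron had none: Kcnh5, Cacna1b, Scn2a1, Kcnk2 and Scn7a.

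**Figure D3:**
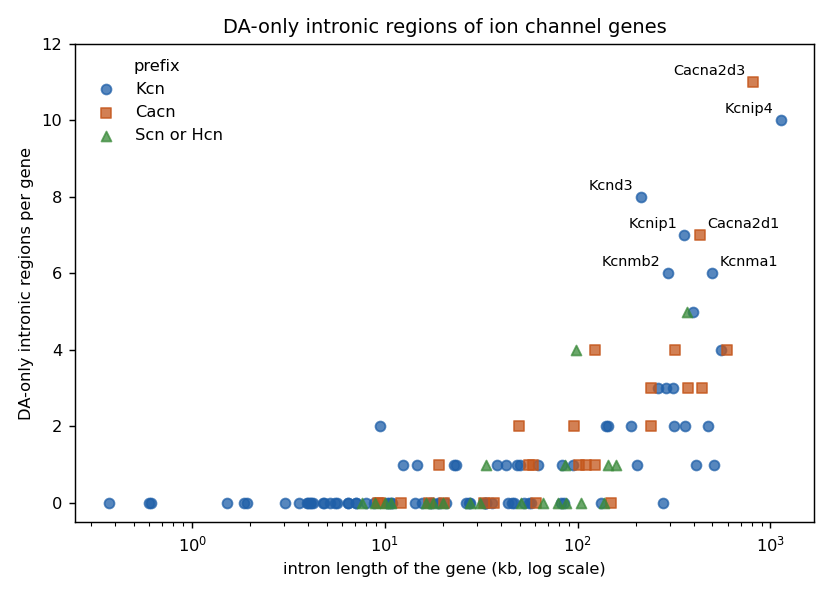
DA-only intronic regions per gene (vertical axis) against the intron length of the gene (kb, log scale), with 1 point per ion channel gene that has an intron, marked by prefix (Scn and Hcn share a mark), and names at genes with 6 or more. Counts are highest in long genes, up to 11 in Cacna2d3, and Kcnd3 reaches 8 with 212.1 kb.

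The Kcnd3 gene had 34 intronic regions with a peak in some library, of which 17 were open in all 3 DA libraries and 6 in all 5. Its highest DA-only region, chr3:105373360-105374591, scored 7.20, 8.06 and 7.45. A second, at chr3:105451780-105452277, scored 5.32, 5.27 and 7.27. Under the equal number of peaks, Kcnd3 had 1 DA-only and 2 5-HT-only intronic regions, and its promoter region was 5-HT-only. These classes thus changed with the number of peaks. Among genes with a promoter region in all 5 libraries, the percentiles of its promoter were 6.00, 6.85, 7.67, 9.42 and 2.86. They overlapped between the groups, so the promoter had no direction by rank.

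**Figure D4:**
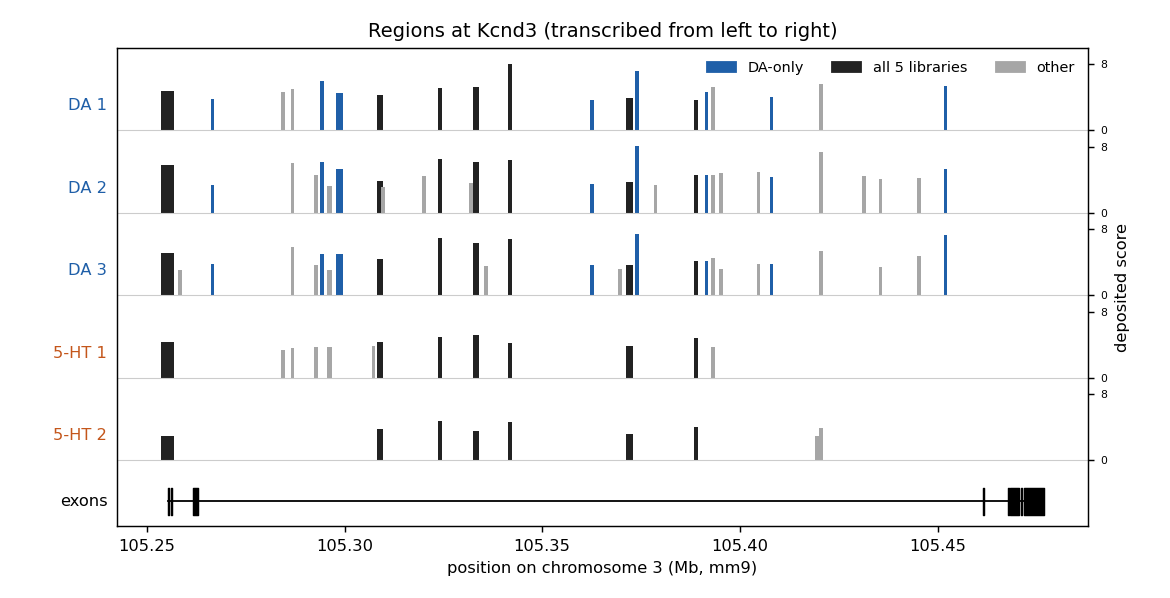
Map of Kcnd3 on chromosome 3 (position in Mb, mm9; horizontal axis), with the exons at the bottom and, for each library, the deposited score of each region (vertical axis, 0 to 8 per track) as a bar. Narrow bars are widened to be visible, 8 blue bars mark DA-only intronic regions, which are empty in both 5-HT tracks, and black bars mark the promoter and 6 intronic regions open in all 5 libraries.

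The DA-only intronic regions lay far from promoters: 128 of the 147 (87.1%) were over 10 kb from any TSS of their gene. The median distance was 56.8 kb, with a range from 2.95 to 766.5 kb. For the DA-only intronic regions of all genes it was 28.3 kb. All 851 intronic regions of members with a peak had a median of 50.9 kb, and the 53 open in all 5 libraries had 47.2 kb. A long distance was thus not particular to the DA-only regions. The regions were 139 to 2071 bp wide, with a median of 516 bp and a median GC content of 47.0%, against 525 bp and 48.0% in all genes. Regions of members open in all 5 libraries were wider, with a median of 848 bp, and richer in GC, at 53.0%. Of the 147, 93 scored below the equal-number limit in every library and 20 were DA-only with the equal number of peaks as well.

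A promoter open in all libraries and a DA-only intronic region were both present in 33 members. These are 61.1% of the 54 with a DA-only intronic region, against 67.5% over all genes, and 52.4% of the 63 with a promoter region in all 5 libraries, against 22.5%. Among genes with at least 100 kb of intron and such a promoter, the shares were 89.3% of 28 members and 75.7% of all genes. A DA-only promoter region and a DA-only intronic region were both present in 2 members, Kcnip1 and Cacna1a. That is 3.70% of the 54, against 7.07% over all genes, and 20.0% of the 10, against 31.9%.

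The highest DA-only intronic regions, by the lowest DA score, belonged to 5 genes. The first, chr7:129881894-129882438 in Cacng3, scored 9.50, 9.48 and 11.4 in the DA libraries. The next, chr2:65309208-65309853 in Scn3a, scored 9.32, 12.0 and 11.3. At Cacng3, the intronic region was DA-only while the promoter ranked lower in the DA than in the 5-HT libraries. The others were chr5:15771231-15771592 in Cacna2d1 at 8.66, 11.3 and 10.3, chr3:65007063-65008332 in Kcnab1 at 7.88, 9.38 and 8.47, and the Kcnd3 region above. All 5 scored 0 in both 5-HT libraries.

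The central 200 bp of these 5 regions and of the highest DA-only promoter region are printed below (mm9, plus strand). They were the highest of their kind by the lowest DA score. Capitals mark matches, on either strand, to a list of short words: TAATTA (homeodomain), AAAGGTCA (Nr4a), TGTTTAC (forkhead), ACAAAG and ACAATG (SOX), CAGATG and CAGCTG (E-boxes), TTGGCA (NFI half-site) and TTCAGCACC (part of the REST element). The window in Cacng3 holds none of them.
Cacng3 chr7:129882066-129882265: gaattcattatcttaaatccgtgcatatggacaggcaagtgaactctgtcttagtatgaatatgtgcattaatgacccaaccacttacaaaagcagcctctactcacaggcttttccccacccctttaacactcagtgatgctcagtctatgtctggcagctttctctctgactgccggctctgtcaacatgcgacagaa
Scn3a chr2:65309430-65309629: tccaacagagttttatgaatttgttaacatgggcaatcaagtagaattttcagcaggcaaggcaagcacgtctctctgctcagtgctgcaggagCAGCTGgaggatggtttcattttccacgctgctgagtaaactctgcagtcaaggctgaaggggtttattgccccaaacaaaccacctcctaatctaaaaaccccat
Cacna2d1 chr5:15771311-15771510: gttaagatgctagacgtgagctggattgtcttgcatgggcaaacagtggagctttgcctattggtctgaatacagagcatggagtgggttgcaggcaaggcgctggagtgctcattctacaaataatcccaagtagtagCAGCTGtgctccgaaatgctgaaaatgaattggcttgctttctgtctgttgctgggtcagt
Kcnab1 chr3:65007597-65007796: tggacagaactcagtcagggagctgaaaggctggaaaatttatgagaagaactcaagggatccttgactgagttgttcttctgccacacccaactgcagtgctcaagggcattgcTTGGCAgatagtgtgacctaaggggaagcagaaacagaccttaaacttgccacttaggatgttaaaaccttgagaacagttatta
Kcnd3 chr3:105373875-105374074: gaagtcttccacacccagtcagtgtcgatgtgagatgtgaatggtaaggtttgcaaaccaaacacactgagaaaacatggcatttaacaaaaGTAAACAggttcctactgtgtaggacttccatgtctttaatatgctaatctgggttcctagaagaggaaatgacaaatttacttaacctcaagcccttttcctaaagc
Kcnip1 chr11:33894142-33894341: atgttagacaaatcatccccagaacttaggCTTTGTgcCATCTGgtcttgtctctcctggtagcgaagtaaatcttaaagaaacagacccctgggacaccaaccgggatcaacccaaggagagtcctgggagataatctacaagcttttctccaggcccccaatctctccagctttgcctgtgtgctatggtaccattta

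In these windows, Scn3a and Cacna2d1 each hold CAGCTG, Kcnab1 holds TTGGCA, Kcnd3 holds TGTTTAC on the minus strand and the Kcnip1 promoter holds ACAAAG and CAGATG on the minus strand. CAGCTG was found in 20.4% of the 147 DA-only intronic regions of members and in 24.8% of the 7539 of all genes. TGTTTAC was found in 4.76% and 5.36% of them. A match describes letters and does not show that a factor binds there.

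The other words were about as frequent in members as in all genes. Among DA-only intronic regions, CAGATG was found in 23.8% in members and 23.1% in all genes, ACAAAG in 18.4% and 17.1%, ACAATG in 12.9% and 9.84%, TTGGCA in 15.6% and 13.8%, and TAATTA in 7.48% and 8.28%. AAAGGTCA, the element that binds Nr4a monomers, was found in 5.44% of the DA-only regions of members and 3.77% of those of all genes. In intronic regions open in all 5 libraries, it was found in 0 of 53 in members and 0.502% of the 2592 of all genes. TTCAGCACC was found in 0.680% and 0.265% of DA-only regions. The gap for AAAGGTCA between DA-only and shared regions was thus present over all genes and was not particular to the members.

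A 5-HT-only intronic region was found in 4 members (2.92%), against 0.909% of all genes. This count moved to 8 with the equal number of peaks, to 26 and 11 without 5-HT libraries 2 and 1, and to 7 without DA library 2. Kcnj10 had one at chr1:174272808-174273221 with scores of 4.00 and 4.50 in the 5-HT libraries, and Cacna2d4 at chr6:119268865-119269128 with 4.53 and 3.72. Cacna2d3 had one at chr14:29853882-29854091 with 4.00 and 3.52, and Kcnn3 at chr3:89426700-89426987 with 3.84 and 3.11. All were at 0 in the 3 DA libraries, and Cacna2d4, Cacna2d3 and Kcnn3 also had DA-only intronic regions elsewhere.

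The central 200 bp of these 4 regions are shown because they are the 5-HT-only intronic regions of the set with all peaks and libraries. Capitals mark the same words (mm9, plus strand).
Kcnj10 chr1:174272914-174273113: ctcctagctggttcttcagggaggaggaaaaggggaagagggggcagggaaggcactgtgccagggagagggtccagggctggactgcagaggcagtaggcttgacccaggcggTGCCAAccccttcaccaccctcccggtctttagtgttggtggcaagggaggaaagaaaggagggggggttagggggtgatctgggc
Cacna2d4 chr6:119268896-119269095: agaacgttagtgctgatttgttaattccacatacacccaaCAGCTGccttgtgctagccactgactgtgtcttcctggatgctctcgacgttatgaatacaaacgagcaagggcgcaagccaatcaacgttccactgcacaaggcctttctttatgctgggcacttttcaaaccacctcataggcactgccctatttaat
Cacna2d3 chr14:29853886-29854085: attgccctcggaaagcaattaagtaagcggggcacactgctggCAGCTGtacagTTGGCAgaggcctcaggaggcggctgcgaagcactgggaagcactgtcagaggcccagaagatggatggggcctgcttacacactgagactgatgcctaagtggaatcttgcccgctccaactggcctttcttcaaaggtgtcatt
Kcnn3 chr3:89426743-89426942: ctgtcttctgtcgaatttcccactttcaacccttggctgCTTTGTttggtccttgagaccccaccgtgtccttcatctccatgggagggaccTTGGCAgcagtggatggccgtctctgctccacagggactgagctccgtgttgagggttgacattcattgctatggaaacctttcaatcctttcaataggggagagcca

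TTGGCA, on either strand, occurred in 3 of these 4 windows, those of Kcnj10, Cacna2d3 and Kcnn3. Over all genes it was found in 26.7% of the 217 intronic 5-HT-only regions and in 14.4% of all 47866 intronic regions with a peak. With 4 windows, no frequency can be read for the members.

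Of the highest intronic regions, some were open in all libraries. In Kcnq3, chr15:66070046-66072489 scored 14.999, 17.4, 17.3, 10.9 and 5.53, and in Scn2a1, chr2:65505952-65507203 scored 14.97, 16.4, 14.0, 12.7 and 8.16. Both exceeded the promoter score of their own gene in every library. The Scn2a1 region lies upstream of another annotated TSS of the gene, just outside its 1 kb promoter window. It was counted as intronic by that limit. In Kcnj10, chr1:174285153-174286620 scored 15.1, 16.1, 15.5, 3.66 and 0, at percentiles among intronic regions of 99.71, 99.67 and 99.76 in the DA libraries and 28.4 in 5-HT library 1. It had the highest score of all intronic regions of members in DA library 1 and was DA-only with the equal number of peaks, so this gene held regions of opposite order in its introns. Of the 200 intronic regions of members that were DA-only or open in all 5 libraries, 5 overlapped the promoter of another gene.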

How the data were processed

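ATAC-seq regions of 3 DA and 2 5-HT libraries were analysed, and the 6 RNA-seq samples were not analysed here. According to the study's methods, the authors used Trimmomatic and FastQC on the reads, Bowtie2 for alignment to mm9, Picard against duplicates, MACS2 for peaks and HOMER. Their versions and the peak threshold are not given in the sources used here. The deposited files give 131942 regions with a score per library, on a scale that is not named. In 1 line, a misspelled chromosome name was corrected. Peak numbers stand in for depth, since read depth is unknown.

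Regions were assigned to genes of the GENCODE annotation for mm9, with gene models of the same symbol joined (140 models for the 137 members, 3 of which have 2 models). A region counted from an overlap of 1 bp with a promoter (1000 bp upstream to 100 bp downstream of any TSS), and otherwise by its centre in an exon or intron. For a gene with several promoter regions, that with the most libraries, and then the highest scores, gave its values. Percentiles were taken within a library over all protein-coding genes with a promoter peak, or over all intronic regions. With 3 against 2 libraries, the smallest two-sided exact permutation p is 0.2, so no test was made between the cell types. Counts are set beside those over all protein-coding genes, and genes and regions are not replicates.

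The members, the gene and marker lists, the sequence words and the settings were chosen with earlier results of these data known. Named were all members with a DA-only promoter or 5-HT-only intronic region, the 10 members with the most DA-only intronic regions (a tie at 4 regions went by symbol), the 10 with the highest promoter score in their lowest DA library, the 5 highest DA-only intronic regions, and a list of channels known from monoaminergic or developing neurons, of which 5 genes are not reported here. Other names, among them those that changed with the equal number of peaks or ranked higher or lower in every DA library, the highest regions open in other combinations, and CpG ratios, GC content and regions upstream of promoters were added after the data were seen. The ranking by the lowest DA score treats the scores as if on 1 scale. Comparison groups were 56 receptor subunits, 21 of 22 listed channel partners found in the annotation, and the 4 G-protein-gated channel genes. Words on either strand were looked for within the middle 200 bp of each region. Alternatives were an equal number of peaks, the 10000 highest peaks, peaks above the median of their library, each library left out, wider promoters, the 5′ TSS alone, an overlap by at least 50% of the region, merged regions, and the set without Scnn1 genes or without regions at promoters of other genes. Computing used pandas 2.3.3, NumPy 2.4.6, matplotlib 3.10.9 and SciPy 1.17.1 under Python 3.11.15, and the computations were tested on simulated data.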

Additional observations from a re-analysis of the deposited data

How the results depend on the processing

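The counts moved with the number of peaks used. With the equal number of peaks, members with a promoter region in all 3 DA libraries fell from 87 to 38, in all 5 libraries from 63 to 34 and with a DA-only one from 10 to 3. Members with a DA-only intronic region fell from 54 to 19, their DA-only intronic regions from 147 to 23 (9.76 to 1.53 per Mb) and those open in all 5 libraries from 53 to 22, while members with a 5-HT-only intronic region rose from 4 to 8. With the 10000 highest peaks, these 7 values were 6, 4, 0, 5, 6 (0.398 per Mb), 4 and, within 1.5 times the first count, 3, and both 5-HT libraries shared 12 promoters in place of 63. With peaks above the library median, all 3 DA libraries shared 53 promoters, both 5-HT libraries 24 and all 5 libraries 23, DA-only promoters rose to 17, DA-only intronic regions fell to 65 (4.31 per Mb), those in all 5 libraries to 21 and 5-HT-only members to 2. Fewer peaks in a library reduce what all libraries share by construction. Leaving out 1 library gave 87 to 98 members for all 3 DA libraries, 63 to 89 for both 5-HT libraries and 63 to 79 for all 5. It gave 10 to 30 members with a DA-only promoter (19 without DA library 1, 30 without 5-HT library 1) and 55 to 64 with a DA-only intronic region. It gave 155 to 258 DA-only intronic regions (10.3 to 17.1 per Mb, the highest without DA library 1), 53 to 99 in all 5 libraries (99 without 5-HT library 2) and 4 to 26 members with a 5-HT-only intronic region (7 without DA library 2, 11 without 5-HT library 1, 26 without 5-HT library 2). The other alternatives (promoter width, 5′ TSS, overlap, merging, without Scnn1 genes, without promoters of other genes) kept all 9 values within 1.5 times. No paired analysis was possible because the results come from no test, and replicate numbers only count separate sorts. Read depth is unknown, so a missing peak in the 5-HT libraries, which had the fewest, cannot be told from a closed region.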
